A study of Mus musculus with 8 samples.

Results

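Caspases are cysteine proteases that cut other proteins after aspartate residues, and *Apaf1* encodes the scaffold that activates *Casp9*. The genes described here are 7 caspases (*Casp1*, *Casp2*, *Casp4*, *Casp6*, *Casp8*, *Casp9* and *Casp12*) and *Apaf1*. They were chosen by name, with earlier results of these data known, as initiator, executioner, inflammatory and stress-linked caspases with the apoptosome scaffold. They are 8 of the 19751 gene symbols that could be matched to probes of the array. Other caspase genes were not analysed here. mRNA expression was measured in AtT20 cells, a murine pituitary corticotroph tumor cell line that expresses *Pomc* and secretes ACTH. The control group (n = 4 arrays) was kept for 48 hr in medium with stripped serum without the agonist, and the HX630-treated group (n = 4 arrays) was kept for 48 hr in the same medium with 10 μM HX630, a synthetic agonist of the retinoid X receptors (RXR). Both groups were cells of the same line, and the labels name no transgene or transfection. The sources used here do not say whether the control medium held the solvent of HX630 or whether the 4 samples of a group came from separate cultures, so the p-values measure only the spread between these samples, which may be technical.

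In the extrinsic pathway of apoptosis, ligands of the tumor necrosis factor family bind death receptors, and the adaptor FADD brings caspase-8 together so that it activates itself. In the intrinsic pathway, cytochrome c leaves the mitochondria and binds APAF1, which assembles into the apoptosome and activates caspase-9. Both initiators then cut executioner caspases, which dismantle the cell. Caspase-1 and caspase-4 belong to the inflammatory branch, in which inflammasomes drive the maturation of interleukins and the lytic death called pyroptosis. Caspases are made as inactive zymogens, so an mRNA level does not tell how much of the active enzyme was present.

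Each value below is a log2 signal of 1 probe, and 0 is the 75th percentile of the probes on that array. A gene was called up-regulated or down-regulated at an adjusted p (limma, Benjamini-Hochberg over 28553 probes) below 0.01 together with a fold change above 1.5. A gene with several probes is represented by the brightest one that was tested. Probes differ in their binding, so the signals of different probes were not read as relative amounts of mRNA. Where they are subtracted or summed below, only the change between the groups is compared. The 75th percentile of the raw signal was 1335 to 1863 in the control group and 1803 to 1899 in the HX630 group, between 69.7% and 73.5% of probes were well above background, and no probe of the 8 genes was saturated. One slide held the 4 control arrays and a second slide, scanned separately, held the 4 HX630 arrays, so the effect of the slide or its scan cannot be told apart from that of HX630. In whole cultures, fewer cells of a type and less RNA per cell cannot be told apart either.

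In HX630-treated AtT20 cells, *Casp9* and *Casp8*, the initiators of the intrinsic and the extrinsic pathway, were up-regulated 1.67-fold and 1.55-fold. *Casp2* and *Casp6* were higher by 1.34-fold and 1.23-fold with no overlap between the groups, but they stayed under the fold threshold. *Apaf1* was at 97.1% of control and *Casp12* at 84%, and neither passed the test. *Casp1* was not well above background on any array of either group, and *Casp4* only with 1 probe on 1 control array. HX630 up-regulated 2 and down-regulated 0 of the 6 genes that could be tested, while it up-regulated 8.38% and down-regulated 11.2% of the 15320 genes tested on the array (7.46% and 11.2% of the probes). Of the probes called, 40.1% were up-regulated, against 51.6% with scaling to the array median and 68.5% with scaling to spike-in probes. The median log2 fold change was 0.36 over the 6 genes and -0.03 over all genes tested. All 6 genes were well above background on all 8 arrays, so none of them entered the test through 1 group alone.

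**Figure D1:**
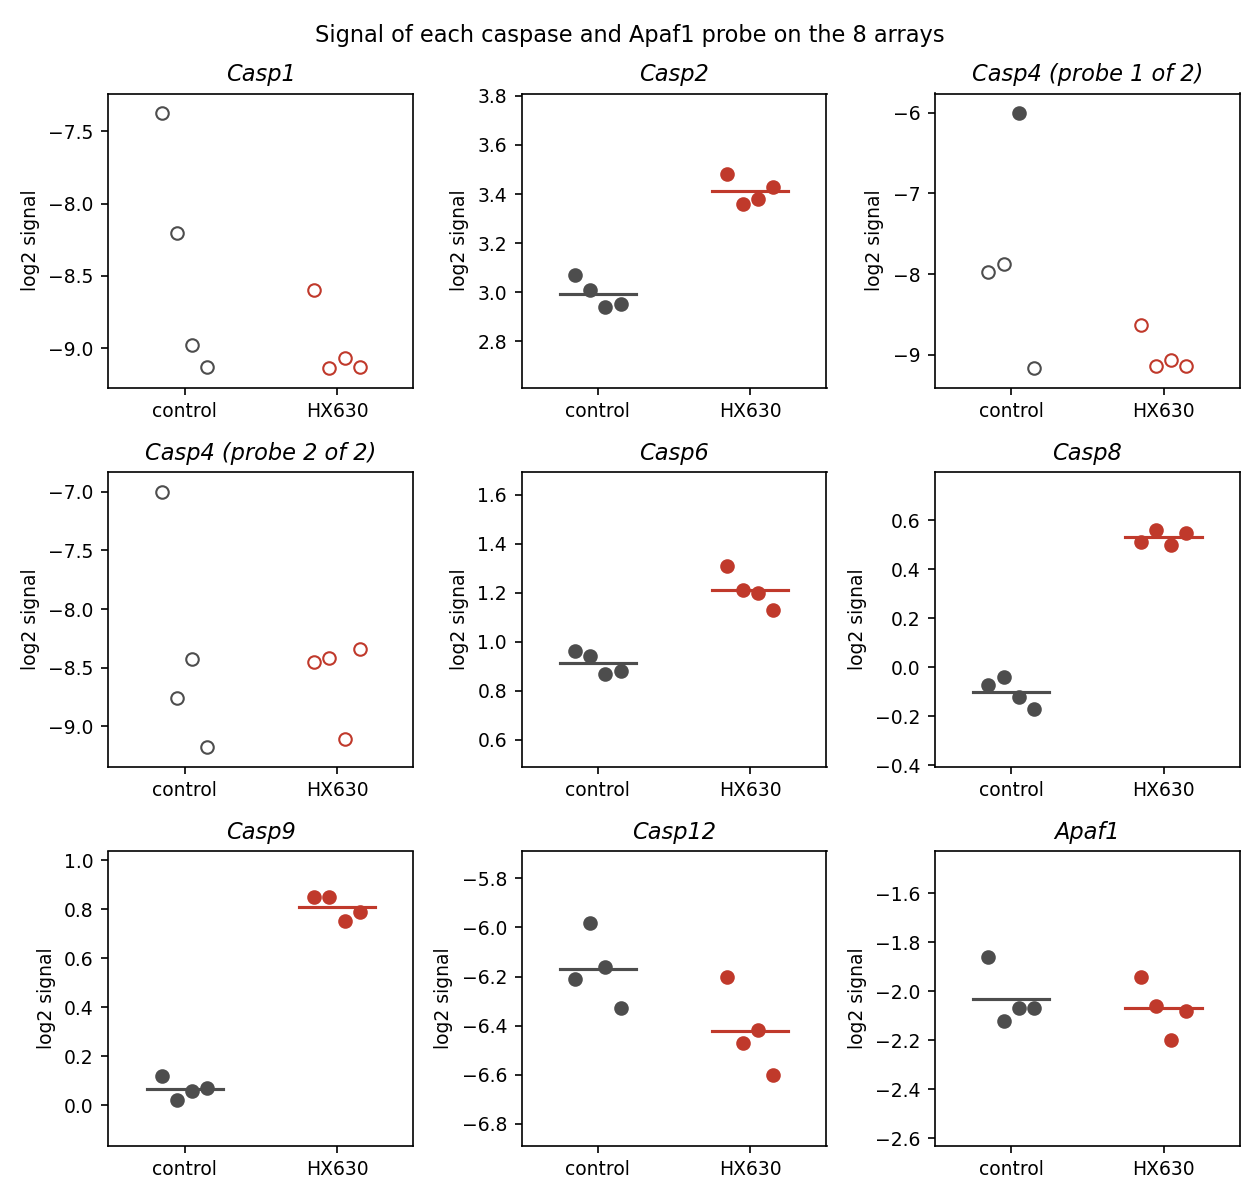
Log2 signal of each caspase and *Apaf1* probe (y axis, 0 is the array's 75th percentile) in the 4 control and the 4 HX630 arrays. Points are arrays, open where the probe was not well above background, and short lines are group means of the genes tested. The groups of *Casp9*, *Casp8*, *Casp2* and *Casp6* do not overlap, and those of *Apaf1* and *Casp12* do.

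The sequences that flank the transcription start sites of the 2 up-regulated initiators and of *Apaf1* are shown because these 3 genes set the contrast between the caspases that rose and the scaffold of caspase-9, which did not pass the test. They are the RefSeq promoters on the assembly GRCm38.p6, 250 bases before to 50 bases after the start, written 5′ to 3′ on the gene's own strand. Capitals mark GC boxes, the letters GGGCGG on either strand, which Sp-family factors are known to bind.
*Casp9* (chr4:141793362-141793661, plus strand): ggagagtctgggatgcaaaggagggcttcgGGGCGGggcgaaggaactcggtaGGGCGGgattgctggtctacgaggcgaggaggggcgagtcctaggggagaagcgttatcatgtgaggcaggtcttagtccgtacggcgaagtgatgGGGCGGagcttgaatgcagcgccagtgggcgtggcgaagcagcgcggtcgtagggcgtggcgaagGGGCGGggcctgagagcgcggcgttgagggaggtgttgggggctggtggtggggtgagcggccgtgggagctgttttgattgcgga
*Casp8* (chr1:58802252-58802551, plus strand): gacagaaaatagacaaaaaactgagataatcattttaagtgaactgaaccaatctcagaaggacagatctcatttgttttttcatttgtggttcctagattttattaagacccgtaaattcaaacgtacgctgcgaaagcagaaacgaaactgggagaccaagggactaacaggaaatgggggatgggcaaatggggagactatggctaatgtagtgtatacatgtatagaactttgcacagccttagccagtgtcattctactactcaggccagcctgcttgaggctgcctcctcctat
*Apaf1* (chr10:91082694-91082993, minus strand): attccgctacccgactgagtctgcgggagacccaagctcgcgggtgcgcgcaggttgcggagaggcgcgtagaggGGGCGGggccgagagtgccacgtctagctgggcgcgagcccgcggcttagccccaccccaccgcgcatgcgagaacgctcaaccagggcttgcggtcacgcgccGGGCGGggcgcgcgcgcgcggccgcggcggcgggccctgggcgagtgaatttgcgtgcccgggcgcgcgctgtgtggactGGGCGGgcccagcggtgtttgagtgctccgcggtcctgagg
The *Casp9* window held 4 GC boxes and 28 CpG dinucleotides at 66% GC. The *Apaf1* window held 3 GC boxes and 46 CpG dinucleotides at 74.7% GC. The *Casp8* window held 0 GC boxes and 5 CpG dinucleotides at 42% GC, below the median of 52.7% over all 32851 promoters of the table. A GC box was found in 35.7% of those promoters. The 2 caspases that were up-regulated thus had start regions of unlike base composition, and the GC-rich window of *Apaf1* was closer to that of *Casp9*.

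The remaining promoters fell into the same 2 kinds. *Casp2* held 2 GC boxes at 63.7% GC and *Casp6* held 3 at 62% GC. *Casp1* (48% GC), *Casp12* (41% GC) and both listed starts of *Casp4* (42% and 41.7% GC) held none. The 3 latter genes are neighbours, with their start regions inside 47259 bases of chromosome 9 (chr9:5298267-5345525) and no other gene's promoter of the table between them. The half-site of nuclear receptors such as RXR (AGGTCA), 2 copies of it in the same direction 1 base apart (DR1) and the spaced repeat of interferon regulatory factors (GAAA and GAAA with any 2 bases between) were searched on both strands in these windows. None of the 8 genes held any of them, while 16.3%, 0.0396% and 3.44% of all promoters did. An E2F site (TTTCCCGC, TTTGGCGC, TTTCGCGC or TTTGCCGC) was found in *Casp2*, and in 2.26% of all promoters. A missing match says only that these letters are not in a window of 300 bases.

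*Casp9* encodes the initiator that the apoptosome activates. Its signal was 0.12, 0.02, 0.06 and 0.07 on the 4 control arrays and 0.85, 0.85, 0.75 and 0.79 on the 4 HX630 arrays. Every HX630 array lay above every control array, and the gap between the groups was far wider than either group. The means were 0.07 ± 0.0386 and 0.81 ± 0.0488 (SD, n = 4 each), a log2 fold change of 0.74 with a standard error of 0.0385 (95% confidence interval 0.65 to 0.83, adjusted p by limma = 2.1e-06). An exact two-sided permutation test over the 8 arrays gave p = 0.0286, the smallest value that 4 against 4 arrays allow. Of all genes tested, 6.44% had a larger rise.

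*Casp8* encodes the initiator that death receptors activate through FADD. Its signal was -0.07, -0.04, -0.12 and -0.17 on the control arrays and 0.51, 0.56, 0.5 and 0.55 on the HX630 arrays. The HX630 arrays lay close together, all above the control arrays. The means were -0.1 ± 0.0548 and 0.53 ± 0.0274 (SD, n = 4 each), and the log2 fold change was 0.63 with a standard error of 0.0382 (adjusted p by limma = 4.81e-06). Its 95% confidence interval, 0.54 to 0.72, reached below the fold threshold, which is 0.585 on the log2 scale, so that a rise of slightly less than 1.5-fold lies within the error. A larger rise was found for 8.51% of genes.

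*Casp2* encodes an initiator that is activated in the PIDDosome, a complex with PIDD1 and the adaptor CRADD. Its signal was 3.07, 3.01, 2.94 and 2.95 on the control arrays and 3.48, 3.36, 3.38 and 3.43 on the HX630 arrays. The groups did not overlap. The means were 2.99 ± 0.0574 and 3.41 ± 0.053 (SD, n = 4 each), a log2 fold change of 0.42 (standard error 0.0438, 95% confidence interval 0.32 to 0.52, adjusted p by limma = 9.6e-05). The whole interval lay under the fold threshold, and *Casp2* was not called.

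*Casp6* encodes an executioner known for cutting nuclear lamins. Its signal was 0.96, 0.94, 0.87 and 0.88 on the control arrays and 1.31, 1.21, 1.2 and 1.13 on the HX630 arrays. The lowest HX630 array was above the highest control array. The means were 0.91 ± 0.0435 and 1.21 ± 0.0719 (SD, n = 4 each), and the log2 fold change of 0.30 had a standard error of 0.0459 (95% confidence interval 0.2 to 0.41, adjusted p by limma = 0.000763). This interval also lay under the fold threshold. With the adjusted p alone, 4 of the 6 genes passed, all higher in the HX630-treated cells, while 24.0% of all genes passed as higher and 27.2% as lower. The same 4 genes were those whose groups did not overlap, and 28.6% of all genes had all HX630 arrays above all control arrays and 32.8% had them all below.

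*Apaf1*, the scaffold of the apoptosome, was measured at -1.86, -2.12, -2.07 and -2.07 on the control arrays and at -1.94, -2.06, -2.2 and -2.08 on the HX630 arrays. The 2 groups lay over each other. The means were -2.03 ± 0.118 and -2.07 ± 0.106 (SD, n = 4 each), a log2 difference of -0.04 with a 95% confidence interval of -0.22 to 0.13 (adjusted p by limma = 0.649). The interval lies below the log2 fold change of *Casp9*. The sign of so small a value has no weight, since it was 0.01 without control replicate 1, 0.04 with scaling to the array median and 0.01 with quantile normalization.

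*Casp12* encodes a caspase associated with the endoplasmic reticulum. Its signal was -6.21, -5.98, -6.16 and -6.33 on the control arrays and -6.2, -6.47, -6.42 and -6.6 on the HX630 arrays. The first HX630 array lay among the control arrays and the other 3 below them. The log2 difference was -0.25 (standard error 0.102, 95% confidence interval -0.49 to -0.02), and neither the adjusted p by limma (0.0646) nor the exact permutation test (p = 0.0857) passed. The probe was close to the limit of the arrays, where the lowest signal well above background was from -6.93 to -6.34 in the control group and from -7.22 to -6.64 in the HX630 group.

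*Casp1*, the protease of the inflammasome, stayed at background level on all 8 arrays. *Casp4*, which senses bacterial lipopolysaccharide inside cells, had 2 probes. The first was well above background on control replicate 3 alone, and the second on 0 of 8 arrays. Neither gene was tested, and no fold change can be given. The 3 neighbours on chromosome 9 were thus either not above background or close to it in AtT20 cells.

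**Figure D2:**
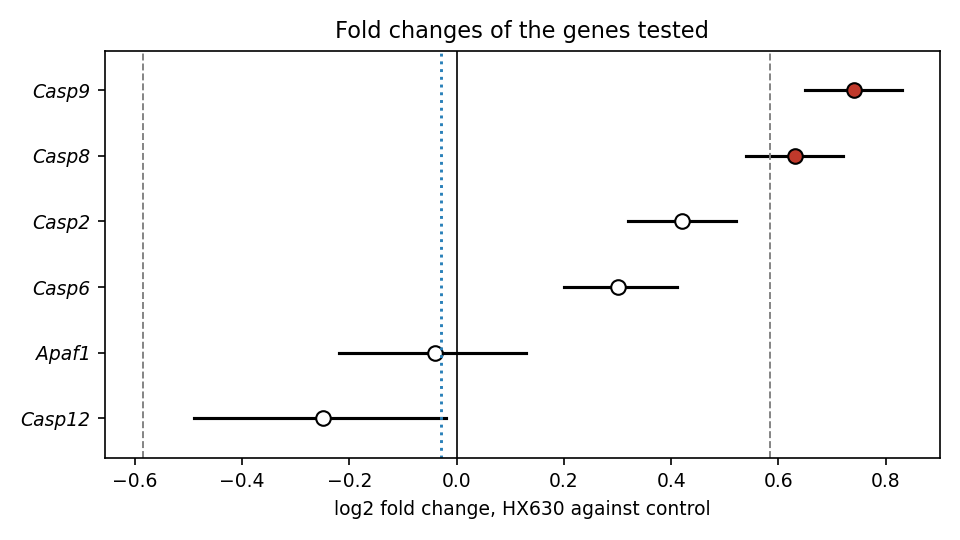
Log2 fold change (HX630 minus control, x axis) of the 6 genes tested, with points for the fitted values, bars for 95% confidence intervals and dashed lines at a fold change of 1.5 in either direction. A dotted line marks the median of all genes, -0.03. *Casp9* lies wholly above the line, *Casp8* reaches it, *Casp2* and *Casp6* lie between 0 and the line, and the interval of *Apaf1* covers 0.

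Signals on the same array share its scaling, so the difference between 2 genes on each array is the same under any scaling that shifts a whole array by 1 value. Quantile normalization and normexp background correction are not of that kind and can move it. This comparison was chosen after the values had been seen. All 15 pairs of the 6 genes were compared by an exact permutation test, and for 14 of them the groups did not overlap (p = 0.0286, adjusted over the 15 pairs p = 0.0306), against 11 pairs with quantile normalization and 12 with normexp. The share of such pairs among all genes was not computed. Single genes had groups that did not overlap in 28.6% (higher) and 32.8% (lower) of all genes tested. The count of pairs alone therefore says little about these genes. *Casp9* minus *Apaf1* was 1.97 to 2.15 in the control group and 2.79 to 2.95 in the HX630 group, a shift of 0.78 (1.72-fold). *Casp8* minus *Apaf1* shifted by 0.67 (1.59-fold), from 1.78 to 2.08 on the control arrays to 2.46 to 2.7 on the HX630 arrays. The mRNA of both initiators therefore changed differently from that of the scaffold, by more than the spread between arrays. *Casp2* and *Casp6* shifted against *Apaf1* by 0.46 and 0.35. The groups of these 4 differences to *Apaf1* did not overlap with quantile normalization (0.74, 0.63, 0.48 and 0.30 for *Casp9*, *Casp8*, *Casp2* and *Casp6*) or with normexp (0.69, 0.79, 0.40 and 0.40).

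The order of the 2 up-regulated caspases was not settled. *Casp8* minus *Casp9* was -0.23 to -0.06 in the control group and -0.33 to -0.24 in the HX630 group, a shift of -0.11 with the groups only just apart. With normexp the shift turned to 0.10 and the groups overlapped (exact permutation p = 0.0571). *Casp6* minus *Casp9* shifted by -0.44 and *Casp6* minus *Casp8* by -0.33, and with quantile normalization and normexp these groups stayed apart. *Casp2* minus *Casp6* shifted by 0.12, but with normexp by 0, where the groups overlapped. *Casp2* minus *Casp8* shifted by -0.21, and its groups overlapped with quantile normalization (-0.15). *Casp12* minus *Apaf1* was the pair whose groups overlapped, with a shift of -0.21 (exact permutation p = 0.171).

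**Figure D3:**
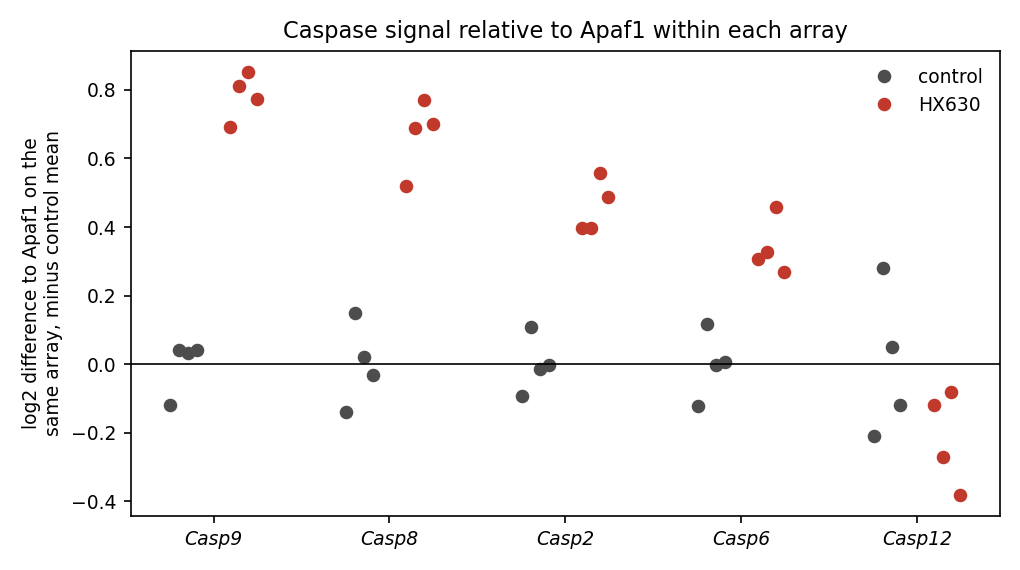
Difference between the log2 signals of each gene and *Apaf1* on the same array, less the mean of that difference over the control arrays (y axis, log2), with 1 point per array for the 4 control and the 4 HX630 arrays. The HX630 arrays lie above the control arrays for *Casp9*, *Casp8*, *Casp2* and *Casp6*, and overlap them for *Casp12*.

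None of the listed partners of caspase-9 was up-regulated. Of 9 genes of the apoptosome and of the mitochondrial factors tested, 0 were up-regulated, 2 were down-regulated and 7 were not called, with a median log2 fold change of -0.16 and 7 of 9 below 0. Among all genes tested, 8.38% were up-regulated and 11.2% down-regulated, so that 0 of 9 up-regulated is near the share of all genes. *Endog*, a mitochondrial nuclease, fell from a mean of 2.05 to 1.28, to 58.4% of control (adjusted p by limma = 6.23e-07). *Hspe1*, the mitochondrial co-chaperonin, fell to 61.6% of control (adjusted p by limma = 4.96e-06), while a second probe at -0.50 was under the fold threshold (adjusted p by limma = 0.000557) and another at -0.77 did not pass (adjusted p by limma = 0.314). *Cycs*, encoding the cytochrome c that binds APAF1, was named after its values had been seen. Its signal was 4.79, 4.82, 4.74 and 4.84 on the control arrays and 4.38, 4.35, 4.36 and 4.42 on the HX630 arrays, 74.7% of control, which was under the fold threshold (adjusted p by limma = 2.6e-05). The 2 other *Cycs* probes gave -0.32 and -0.41.

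Around caspase-8, 10 of 13 genes of its activating platform were tested, and 1 was up-regulated, 0 were down-regulated and 9 were not called, with a median log2 fold change of 0.17. These counts are near the shares of all genes tested, 8.38% up-regulated and 11.2% down-regulated. *Fas*, *Fasl* and *Ripk3* were not tested, because too few arrays had them well above background. *Tnfsf10*, the death ligand TRAIL, was -8.43, -8.47, -7.49 and -7.17 on the control arrays, where it was not well above background, and -5.65, -5.68, -5.6 and -5.36 on the HX630 arrays, where it was. It was at least 2.09-fold higher in the HX630-treated cells (adjusted p by limma = 0.000325). It entered the test through the HX630 arrays alone, so the test rests on control values below detection. The bound sets the HX630 mean against the lowest signal well above background on each control array. *Fadd*, the adaptor that recruits caspase-8, was named after its values had been seen, with signals of 0.32, 0.31, 0.34 and 0.33 on the control arrays and 0.78, 0.83, 0.77 and 0.85 on the HX630 arrays. At 1.4-fold it was under the fold threshold (adjusted p by limma = 7.78e-06). *Cflar*, which encodes the inhibitor of caspase-8 activation c-FLIP, gave 0.23 with its brightest probe and -0.40 and -0.48 with the other 2, so that its probes disagreed in direction, and none was called.

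None of the 3 genes listed around the PIDDosome was called by its brightest probe. *Madd* was in this list but is not among the parts of the complex named above. *Pidd1*, the scaffold of caspase-2 activation, had the smallest p of them, with signals of 0.39, 0.39, 0.37 and 0.38 on the control arrays and 0.93, 0.87, 0.93 and 0.94 on the HX630 arrays. The groups were well apart, but the rise of 1.45-fold was under the fold threshold (adjusted p by limma = 3.78e-06). *Cradd* was at 0.12 and *Madd* at -0.30, with a second, dimmer *Madd* probe down-regulated at -0.75 (adjusted p by limma = 0.00452). These 3 genes were named after their values had been seen.

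Among 16 inflammasome and pyroptosis genes tested of 23 listed, 4 were up-regulated (8.38% of all genes), 1 was down-regulated (11.2% of all genes) and 11 were not called. Their median log2 fold change was 0.26. One of the 4, *Il18*, entered the test through the HX630 arrays alone. *Txnip*, a regulator of thioredoxin that can bind NLRP3, rose 3.63-fold by its brightest probe (adjusted p by limma = 2.72e-07), whereas its second probe gave -0.15 and did not pass. *Naip6*, of the family of sensors of bacterial flagellin, rose 2.28-fold (adjusted p by limma = 4.99e-06), and *Gbp2*, an interferon-induced GTPase, fell to 56.8% of control (adjusted p by limma = 0.000116). Of the interleukin genes whose products are tied to inflammasomes, *Il1a* and *Il1b* were not above background on enough arrays to be tested. *Il18* was well above background on 0 of 4 control and 4 of 4 HX630 arrays and was at least 1.31-fold higher.

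Of 11 caspase inhibitors tested, 2 were up-regulated (8.38% of all genes), 0 were down-regulated (11.2% of all genes) and 9 were not called. Their median log2 fold change was 0.19. The 2 were *Naip6*, given above, and *Naip1* at 1.72-fold (adjusted p by limma = 0.000286), whose second probe gave -0.25 and did not pass. Both belong to a family of near-identical copies, so their probes may share targets and their values are uncertain. *Xiap*, the inhibitor that binds caspase-9 directly, was named after its values had been seen, and was at 1.16-fold without passing (adjusted p by limma = 0.018).

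Genes of caspase substrates moved in both directions. Of 22 tested, 2 were up-regulated, 2 were down-regulated and 18 were not called, with a median log2 fold change of 0.02. Both counts are about the shares of all genes tested, 8.38% up-regulated and 11.2% down-regulated. *Panx1*, a membrane channel that caspases open, rose from 0.24, 0.25, 0.18 and 0.16 on the control arrays to 1.11, 1.23, 1.23 and 1.17 on the HX630 arrays, 1.97-fold (adjusted p by limma = 8.88e-07). *Lmnb1*, encoding the nuclear lamin B1, rose 1.74-fold (adjusted p by limma = 0.000119). *Stk24*, a kinase of the STE20 family, fell to 60.9% of control (adjusted p by limma = 2.66e-06). *Bid*, which caspase-8 cuts to link both pathways, was named after its values had been seen and was at 1.17-fold, under the fold threshold (adjusted p by limma = 0.000399).

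The genes of the endoplasmic reticulum stress response listed around *Casp12* were mostly lower. Of 11 tested, 0 were up-regulated (8.38% of all genes), 4 were down-regulated (11.2% of all genes) and 7 were not called. Their median log2 fold change was -0.56, with 10 of 11 below 0. *Ddit3*, encoding the stress-induced factor CHOP, was 1.87, 2.11, 2.23 and 2.01 on the control arrays and 0.44, 0.54, 0.55 and 0.49 on the HX630 arrays, 34.2% of control (adjusted p by limma = 1.67e-06). *Ern1*, the stress sensor IRE1, fell to 42.3% of control (adjusted p by limma = 1.47e-07), and *Atf6*, another sensor, fell to 57.6% (adjusted p by limma = 8.15e-06). *Casp12* itself did not pass the test. Of 19 transcription factors listed for caspase genes and *Apaf1*, 0 were up-regulated, 1 was down-regulated and 18 were not called, with a median of -0.05. The shares of all genes were again 8.38% up-regulated and 11.2% down-regulated. The 1 factor called was *Rarb*, a retinoic acid receptor, at -0.89 (adjusted p by limma = 0.00934), which was well above background on 3 of 4 HX630 arrays.

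**Figure D4:**
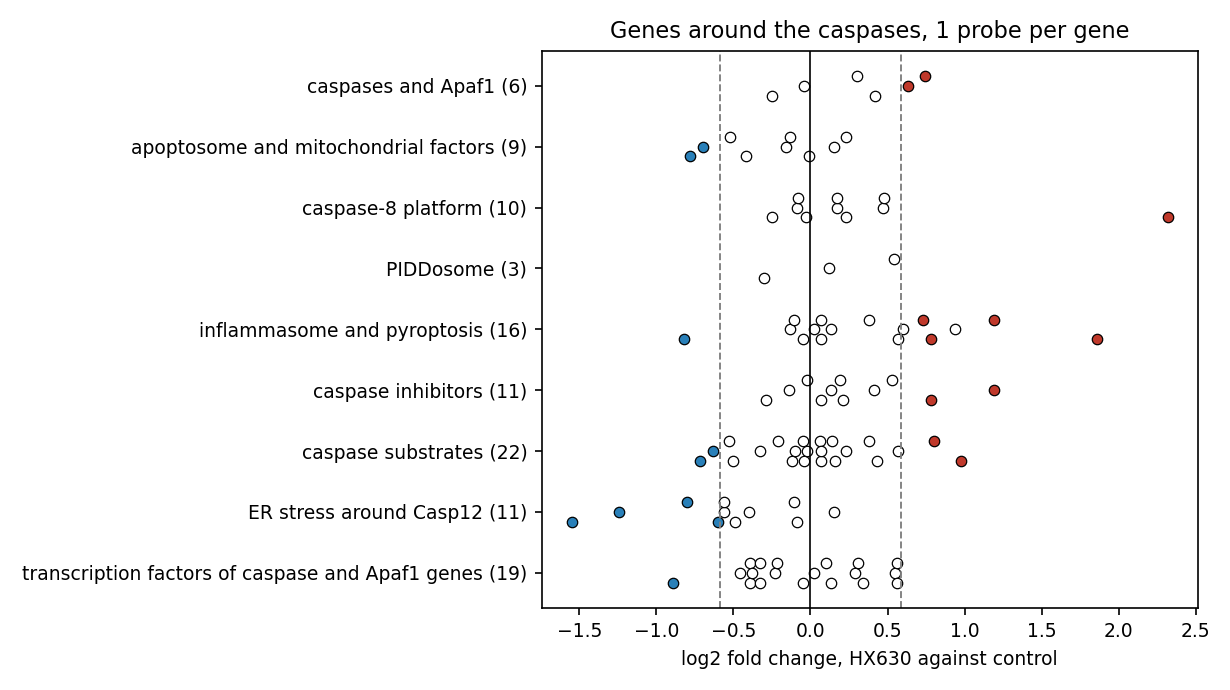
Log2 fold change (x axis, HX630 minus control) of every tested gene in each list of caspase partners, with 1 point per gene, red where up-regulated, blue where down-regulated and open where not called, and dashed lines at a fold change of 1.5. The number of genes tested stands beside each list, and 10 of the 11 points of the endoplasmic reticulum list lie below 0.

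The genes whose pattern over the 8 arrays was most like that of the up-regulated caspases were named by the smallest root mean square difference between signals centred on their own means, over 14304 genes. For *Casp9* these were *Hrh3*, the histamine H3 receptor (difference 0.0207, log2 fold change 0.73), and *Cdh2*, N-cadherin (0.0235, 0.72). For *Casp8* they were *Lyplal1* (difference 0.0188, log2 fold change 0.62) and *C2cd2* (0.021, 0.61). This measure is set mostly by the shift between the groups, so their similar fold changes follow from the way they were picked.

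The labelled cell type was checked by *Pomc*, the defining hormone gene of corticotrophs, which was well above background on all 8 arrays and lower by 0.45 on the log2 scale in the HX630-treated cells, under the fold threshold. Of 10 corticotroph markers 9 were tested, of which 2 were up-regulated (*Crhr1* 2.16-fold and *Neurod1* 1.65-fold) and 2 down-regulated (*Nr4a1* to 9.93% and *Pcsk1* to 24% of control). Their summed linear signal was 315 to 390 times the 75th percentile on the control arrays and 219 to 229 times on the HX630 arrays. Most of this sum was *Pomc*, at 220 to 291 on the control arrays and 187 to 199 on the HX630 arrays. Without *Pomc* the sum was 94.5 to 104 in the control group and 30.9 to 34.7 in the HX630 group. Of 10 myeloid markers, listed because inflammatory caspases are known from such cells, 8 were tested, with 1 up-regulated and 2 down-regulated. The 1 was *Aif1*, which entered the test through the HX630 arrays alone. The sum of the 8 was 5.78 to 7.98 in the control group and 5.5 to 7.57 in the HX630 group, and most of it came from 1 probe of *Itgam*. Without *Itgam* the sum was 1.08 to 1.25 in the control group and 0.739 to 0.817 in the HX630 group. Of 10 fibroblast markers, 5 were tested, with 1 up-regulated and 1 down-regulated, and their sum was 0.154 to 0.201 and 0.147 to 0.203. The myeloid marker *Lyz2* and the fibroblast markers *Pdgfra* and *Lum* were not above background on enough arrays to be tested. The part of other cell types in the caspase values was not tested.

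Under 23 alternative settings, *Casp9* and *Casp8* were called up-regulated in each, with log2 fold changes from 0.62 to 0.96 and from 0.61 to 0.85. *Casp2* ranged from 0.34 to 0.64, *Casp6* from 0.27 to 0.52, *Apaf1* from -0.09 to 0.18 and *Casp12* from -0.35 to -0.03. The 0.64 of *Casp2*, the only one over the fold threshold, came with scaling to spike-in probes, which moved the median of all genes from -0.03 to 0.18. Relative to that median, *Casp9* was at 0.78, *Casp8* at 0.67, *Casp2* at 0.46, *Casp6* at 0.34, *Apaf1* at 0 and *Casp12* at -0.21.

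**Figure D5:**
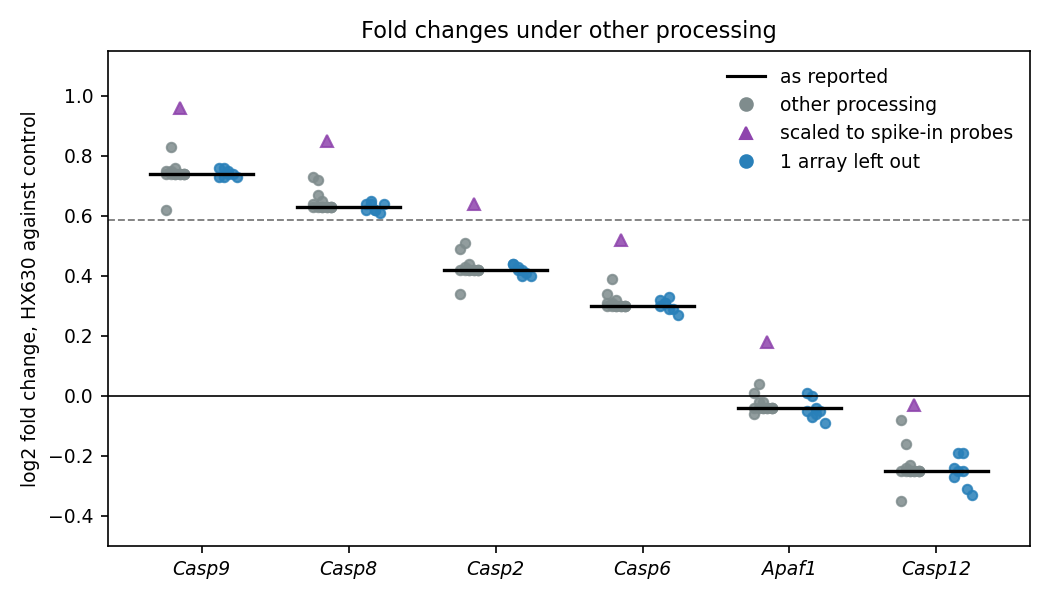
Log2 fold change (y axis, HX630 minus control) of the 6 genes tested, with a black line for the reported value, grey points for other processing, a purple triangle for spike-in scaling, blue points for 1 array left out and a dashed line at the fold threshold of 1.5. *Casp9* and *Casp8* lie above the line in every setting, and *Apaf1* lies on both sides of 0.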

How the data were processed

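Total RNA of AtT20 cells was labelled with Cy3 and hybridised to 1-colour Agilent 4x44K mouse arrays. The authors deposited scanner output of Agilent Feature Extraction 10.7.3.1, with processed signal intensity per spot, and a table of log2 values, which equalled the log2 processed signal less about the 75th percentile of each array. Outlier and control spots were left out here, spots of a probe were averaged, and the 75th percentile was subtracted. A probe was tested if well above background on at least 4 of 8 arrays. Groups were compared with limma 3.58.1 in R 4.3.3. Genes were named through RefSeq accessions in a mouse gene table, which left probes without a match unnamed. The members and lists were chosen with earlier results of these data known. From each list the called genes were named, at most 3 with the largest change, with the 2 genes most like each called caspase. The RNA was of high integrity per the labels. The number of arrays limits the precision. Alternatives were other scalings, the deposited log2 table, background correction, filters, tests and leaving out each array. Statistics were tested on simulated data. In the table of RefSeq promoters all 8 genes matched.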

Additional observations from a re-analysis of the deposited data

How the results depend on the processing

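Of the fold changes, medians and counts recomputed, 252 stayed on the same side of the threshold or within 1.5 times the count. A further 10 moved, 4 changed sign, all of *Apaf1*, and 3 gained a call. Part of the 252 was fixed in advance, since another test or a block leaves a fold change as it is. The median log2 fold change of the caspases and *Apaf1* (0.36) was 0.45 with scaling to the array median, 0.58 with spike-in scaling and 0.13 with no filter on dim probes, when *Casp1* and *Casp4* enter. With no fold threshold, 4 of the genes were up-regulated, *Casp2* (0.42) and *Casp6* (0.30) included, and 13009 probes were called, 5763 up-regulated and 7246 down-regulated, against 5316 probes (2131 and 3185) as reported. With spike-in scaling the probe counts were 4146 upwards and 1908 downwards, and *Casp2* was called at 0.64 (adjusted p by limma = 1.26e-05). With normexp background correction 1240 were up-regulated. *Apaf1*, which was not called in any setting, changed sign to 0.01 with quantile normalization, 0.04 with scaling to the median and 0.18 with spike-in scaling. In an alternative chosen after seeing the data, the within-array difference of *Casp8* minus *Casp9* turned from -0.11 to 0.10 with normexp. The cause of these shifts was not tested. Leaving out 1 array at a time gave 0.61 to 0.65 for *Casp8*, 0.73 to 0.76 for *Casp9*, 0.4 to 0.44 for *Casp2*, 0.27 to 0.33 for *Casp6*, -0.33 to -0.19 for *Casp12* and -0.09 to 0.01 for *Apaf1*, which was 0.01 without control replicate 1, and called 4873 to 5448 probes. The methods' t-test called 2110 probes up-regulated and 3128 down-regulated, and 1981 and 2884 after Benjamini-Hochberg adjustment, with *Casp8* and *Casp9* among them in both cases. The deviations of same-numbered arrays from their group means correlated at 0.523, -0.00929, 0.243 and 0.381. Since 1 of the 4 correlations was not over 0.1 and the labels name no shared batch, the numbers were not taken to pair the samples. With the replicate number as a block, 5556 probes were called and no caspase call changed (*Apaf1* -0.04, *Casp12* -0.25). Signal over background limits *Casp12*, *Casp1* and *Casp4*.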

Other observations

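Among the genes listed around the caspases, 32 had several tested probes, and in 9 of them the probes differed in their call. In the death receptor *Tnfrsf1a*, the brightest probe was at -0.09 without passing, while a second one fell to 55.7% of control (adjusted p by limma = 5.74e-06). In *Rxra*, which encodes a receptor that HX630 activates, 1 probe was at 0.10 and did not pass, while another fell to 62.5% of control (adjusted p by limma = 0.00107). In *Nlrp3*, the sensor of the best known inflammasome, 1 probe was at -0.11 and did not pass, while another was down-regulated at -0.86 (adjusted p by limma = 0.00496). In *Trp73*, a relative of the p53 tumor suppressor, the brightest of 3 probes was at -0.46 and was not called, while another was up-regulated at 0.80. That other probe was close to the limit of the arrays, with a mean signal of -6.28 in the control group and -5.48 in the HX630 group. These genes were chosen after their values had been seen. The 6 caspase and *Apaf1* genes tested had 1 tested probe each, so the same comparison could not be made for them.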
